A study of Homo sapiens with 10 samples.

Results

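CR-1-31-B and silvestrol, both rocaglates, were set directly against each other by the RNA that eIF4A carried after either compound, library against library. All 6 rocaglate libraries of the series were used, 3 with CR-1-31-B and 3 with silvestrol, out of 10 libraries in all. The cells were HEK 293T, an established human embryonic kidney line, carrying FLAG-tagged eIF4A. The labels do not say which eIF4A paralog was tagged, or whether the cells were 1 clone. Each compound was given at 20 nM for 1 h, after which RNA was crosslinked to protein with ultraviolet light and the RNA held by the tagged protein was recovered with an anti-FLAG antibody (eCLIP). The other libraries were 3 anti-FLAG libraries from cells given the vehicle DMSO and 1 input library made without antibody, and both serve here for reference levels (the DMSO libraries also entered the fits). This was the only pair of compounds compared, at 1 dose and 1 time, so no dose response can be given.

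eIF4A is the RNA helicase of the eIF4F complex, which binds the cap of an mRNA and opens its 5' leader so that a ribosome can load and scan. Rocaglates are known to hold eIF4A on RNA, above all on runs of purines, instead of letting it cycle off. The 5' leader is therefore where a difference between compounds would be looked for first, with the coding sequence (CDS) and the 3'UTR as the other parts of the mRNA.

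Counts were given for each of 39472 gene symbols in 7 classes of row, which are the 5' leader, the CDS, the 3'UTR, ncRNA, transcript, Pseudogene and LINC. A symbol in 1 class is called a feature. Of 276304 features, 63566 had a count in at least 1 of the 6 rocaglate libraries and 24713 were frequent enough to be tested, among them 7122 leaders, 8413 CDS and 6712 3'UTRs. Silvestrol libraries 1, 2 and 3 had 1804732, 1004145 and 858733 counts, and their CR-1-31-B counterparts 1610372, 1279001 and 915817. Of the markers checked, PAX2, LIN28B, NEFL and NEFM, which this line expresses, had counts in every library. PAX2 had 13 to 37 and LIN28B 18 to 68, but NEFL had 2 to 70 and NEFM 1 to 53, so these 2 were near 0 in some libraries. The blood, red cell and liver markers PTPRC, HBB and ALB had 0 to 2 counts, and the fibroblast marker COL1A1 had 24 to 143. Levels of a feature are counts scaled to equal library size (CPM, the usual sequencing unit), and fold changes are on the log2 scale, CR-1-31-B minus silvestrol.

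Stretches of at most 30 bases from the leaders of 6 genes on which the results below turn are shown first, each around the longest run of purines in that leader, with the run in capitals. JUN was the one feature that passed edgeR's test between the compounds once library numbers were taken as pairs, HDDC2 and CTNND1 were among the leaders of lowest p on the silvestrol side, and FLNC, PCDH9 and POU3F2 were among the leaders called higher with each compound against DMSO.
JUN: gggagggtAGGAGAAAGAAGGGcccgactg
HDDC2: ctgctccgcccagccGGGGtcggtggccgc
CTNND1: GAGGGGGAAAAAAAAGAGAGAGGGAGAGAG
FLNC: cggccctGGAGGGAGAGAGAGccagagagc
PCDH9: gcatactGGGAAAGGGGAAAGGttgaggca
POU3F2: GAGAAGGAGGGAGAGGAGGAGAAAGAGAGc

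They are written 5' to 3' as in the GENCODE 29 transcripts (GRCh38), and each lies within 1 exon, in the annotated 5'UTR. The JUN stretch is at chr1:58784252-58784281 (minus strand), HDDC2 at chr6:125301933-125301962 (minus strand) and CTNND1 at chr11:57761873-57761902 (plus strand). FLNC is at chr7:128830426-128830455 (plus strand), PCDH9 at chr13:67229786-67229815 (minus strand) and POU3F2 at chr6:98834636-98834665 (plus strand). The longest purine run measured 14 bases in JUN, 14 in FLNC, 15 in PCDH9 and 29 in POU3F2, but 43 in CTNND1, of which the first 30 are shown, and 4 in HDDC2. A run is a description of the letters, and crosslinked positions were not given by these counts.

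No feature was called different between CR-1-31-B and silvestrol. With edgeR's quasi-likelihood test, 0 of 24713 features (0%) had an adjusted p under 0.05, while 609 (2.46%) had an unadjusted p under 0.05. A share of 0.05 would pass the unadjusted threshold if no feature differed, so the 609 are not an excess. DESeq2 and limma voom also called 0 features, with 700 and 661 at an unadjusted p under 0.05. Summing leader, CDS and 3'UTR of each gene gave 0 called of 12406 genes by edgeR (344, or 2.77%, at an unadjusted p under 0.05), 0 by limma voom and 1, JUN, by DESeq2.

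The libraries with the same number deviated together from their group means, so the fit was also run with the number as a replicate block. With the block, edgeR called 1 of 24713 features (0.00405%), the JUN 5' leader, and 1 of 12406 genes (0.00806%), JUN, both higher with CR-1-31-B. At an unadjusted p under 0.05 the block gave 1043 features (4.22%) and 777 genes (6.26%). The count with the block depended on the tool, since DESeq2 passed 11 features and limma voom 39. The 11 were the leaders of JUN, HDDC2, RPS15, OAZ1, ATP5G3, RPLP0, RPL37A and HIST1H2AG, the CDS of TRMT112 and USP39, and the 3'UTR of SIAE. The JUN leader was among those passed by each of the 3 tools, and from here on called means called by edgeR. The numbers come without a stated meaning in the labels, so the p-values measure the spread between these libraries, which may be technical.

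**Figure D1:**
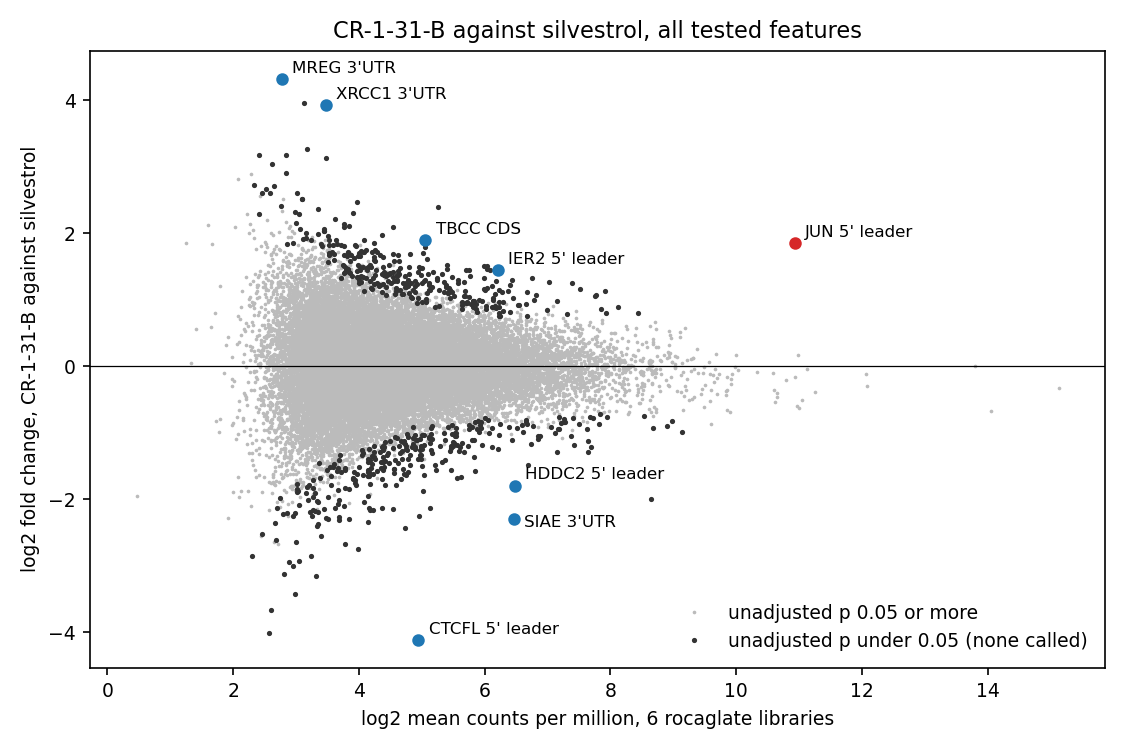
Each point is 1 of the 24713 tested features, with the log2 mean CPM of the 6 rocaglate libraries on the x axis and the log2 fold change of CR-1-31-B against silvestrol on the y axis. Dark points have an unadjusted p under 0.05, none is called without the block, larger labelled points are features described in the text, and the JUN leader in red sits at 1.85 among the most abundant features.

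JUN encodes a subunit of the AP-1 transcription factor and is an immediate early gene, one whose RNA is made within minutes of a stimulus. Its leader held 920, 1152 and 469 CPM in silvestrol libraries 1 to 3 and 1944, 4947 and 2250 CPM in the CR-1-31-B libraries. DMSO libraries 1 to 3 held 372, 641 and 236 CPM. Every CR-1-31-B library was above every silvestrol library, and library 2 was the highest of its group in all 3 groups. The log2 fold change was 1.85 (SE 0.435, 95% interval 0.95 to 2.75), with an adjusted p of 1.00 by edgeR without the block. With the block it was 1.82, with an edgeR adjusted p of 0.00292.

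The other parts of the JUN mRNA lay on the same side. Its CDS held 111, 127 and 58.6 CPM with silvestrol and 166, 271 and 277 CPM with CR-1-31-B, a log2 fold change of 1.26 (95% interval 0.37 to 2.14). Its 3'UTR held 214, 251 and 291 CPM against 313, 608 and 397 CPM, a log2 fold change of 0.80 (0.10 to 1.51). The libraries of the compounds did not overlap in either part, and neither part was called, with or without the block (edgeR adjusted p with the block 0.787 and 1.00). Summed over the 3 parts, JUN held 1450, 1758 and 910 CPM with silvestrol and 2799, 6518 and 3280 CPM with CR-1-31-B, a log2 fold change of 1.61 (SE 0.342). The edgeR adjusted p of that sum was 0.999 without the block and 5.83e-05 with it. Total RNA after each compound was not measured, so more eIF4A per JUN mRNA and more JUN mRNA cannot be told apart.

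The direction of the JUN leader did not rest on 1 library. Leaving out any 1 of the 9 anti-FLAG libraries gave log2 fold changes of the JUN leader from 1.29 to 2.12, the lowest without CR-1-31-B library 2, and no call without the block. With the block the call held in each of these 9 fits (edgeR adjusted p 0.00147 to 0.0469). In the block fit of the 6 rocaglate libraries alone the leader was not called (edgeR adjusted p 0.922), whereas the JUN gene sum was (edgeR adjusted p 0.00586).

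Other immediate early genes were then read from a list of 26. IER2, a small nuclear regulator, and ATF3, a stress-induced transcription factor, were chosen for description after their values were seen. The IER2 leader held 31.9, 67.1 and 20.4 CPM with silvestrol and 64.1, 202 and 59.1 CPM with CR-1-31-B, against 13.7, 17.0 and 13.7 CPM with DMSO. The groups overlapped, because silvestrol library 2 lay above CR-1-31-B libraries 1 and 3, but within each number CR-1-31-B was the higher. The log2 fold changes of IER2 were 1.45 in the leader, 1.30 in the CDS and 1.28 in the 3'UTR.

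The ATF3 leader held 16.9, 54.6 and 12.7 CPM with silvestrol and 43.6, 140 and 42.9 CPM with CR-1-31-B. Here the DMSO libraries held 14.7, 82.8 and 13.7 CPM, so library 2 again stood highest in every group. Per gene, the log2 fold changes were 1.32 for IER2 and 1.37 for ATF3. With the usual filter and all 9 libraries neither gene was called by edgeR, and with the block the edgeR adjusted p was 0.136 for IER2 and 0.230 for ATF3. With no filter edgeR called IER2, as it did with the block when silvestrol library 1 was left out. With the block, IER2 also passed by DESeq2 and limma voom, and ATF3 by limma voom. Without CR-1-31-B library 2 these gene changes were the lowest of the fits that left out 1 library, at 0.54 and 0.51.

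**Figure D2:**
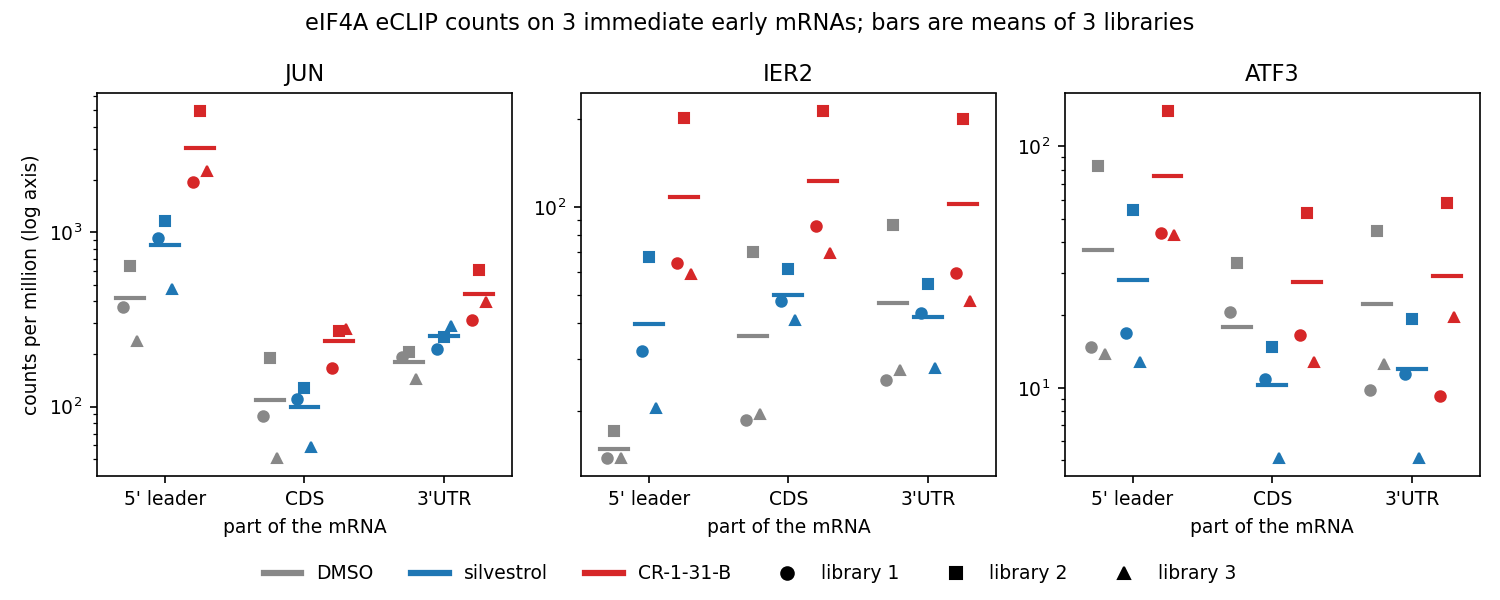
CPM (log axis) in the leader, CDS and 3'UTR of JUN, IER2 and ATF3, with 1 point per library, its shape giving the library number and its colour the group, and a bar for the mean of 3 libraries. The CR-1-31-B points of JUN lie above all silvestrol points in each part, while those of IER2 leader and ATF3 leader overlap with silvestrol library 2.

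Across the whole list, 14 of 18 tested leaders were above 0, with a median log2 fold change of 0.45 against -0.05 over all leaders. For CDS it was 15 of 17, with a median of 0.71 against 0.11 over all CDS, and for 3'UTRs 10 of 14, with a median of 0.61 against -0.01. All 3 CR-1-31-B libraries lay above all 3 silvestrol libraries in 4 of the 18 leaders (227 of 7122 leaders, 3.19%), 5 of the 17 CDS (537 of 8413 CDS, 6.38%) and 2 of the 14 3'UTRs (224 of 6712, 3.34%), and in no member were they all below, as they were in 5.05% of all leaders, 2.56% of all CDS and 3.38% of all 3'UTRs. Without CR-1-31-B library 2 the medians were -0.21 for leaders, 0.29 for CDS and 0.074 for 3'UTRs. The leader median was 1.14 without silvestrol library 2. With the block and 1 library left out, the leader median stayed between 0.26 and 0.48. In the same fits the CDS median lay between 0.57 and 1.06 and the 3'UTR median between 0.22 and 0.64. No list member other than the JUN leader was called with the block.

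Members of the list differed among themselves. The CDS of IER5, an immediate early gene induced by growth signals and stress, held 54.8, 40.9 and 56.1 CPM with silvestrol and 91.2, 185 and 77.6 CPM with CR-1-31-B, a log2 fold change of 1.22 (95% interval 0.40 to 2.04). The CDS of DUSP1, a phosphatase that switches off MAP kinases, held 51.2, 46.6 and 20.4 CPM against 66.8, 102 and 96.2 CPM, a log2 fold change of 1.14 (0.10 to 2.18). KLF6, a zinc finger transcription factor, held 15.1, 7.96 and 12.7 CPM in its leader with silvestrol and 33.7, 39.8 and 19.7 CPM with CR-1-31-B (log2 1.36, 0.09 to 2.63). In all 3 the CR-1-31-B libraries lay above the silvestrol libraries, and none was called. Below 0 were 4 of the 18 leaders, 2 of the 17 CDS and 4 of the 14 3'UTRs. Among them, the EGR3 3'UTR was at -0.55 and the KLF4 leader at -0.39, each lower with CR-1-31-B in every number. The KLF6 3'UTR was at -0.14. The leaders of FOS, FOSB and JUNB, also on the list, were at 0.42, 0.17 and 0.10, each lower with CR-1-31-B in numbers 1 and 3.

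MYC is a growth-promoting transcription factor whose mRNA is an often studied eIF4A client. Its leader held 486, 475 and 341 CPM with silvestrol and 419, 486 and 314 CPM with CR-1-31-B, against 141, 109 and 98.5 CPM with DMSO. The log2 fold change between the compounds was -0.10, and its 95% interval of -0.77 to 0.58 excludes a 2-fold difference in either direction. EGR1, a zinc finger transcription factor, held 18.7, 299 and 26.8 CPM in its CDS with silvestrol and 43.6, 332 and 46.3 CPM with CR-1-31-B, so library 2 stood far above the others in both groups. The part of whatever library 2 shares in the values of the list was not tested.

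On the silvestrol side no feature was called with the usual filter and all 9 libraries, and 8 of the 10 features of lowest p were leaders. Several of these leaders held counts with CR-1-31-B close to those with DMSO. The leader of HDDC2, a nucleotide phosphohydrolase and the feature of lowest p in the whole comparison, held 153, 102 and 161 CPM with silvestrol and 52.2, 44.1 and 22.0 CPM with CR-1-31-B. DMSO libraries held 20.6, 28.7 and 38.9 CPM, a range that the CR-1-31-B libraries overlapped and the silvestrol libraries did not. The log2 fold change was -1.79 (SE 0.399, 95% interval -2.62 to -0.97), with an edgeR adjusted p of 0.292 with the block. The leader has no long purine run in the GENCODE 29 transcript used, as its stretch above shows. That leader is only 43 bases long, against a median of 257 over tested leaders with a sequence. The annotation behind the counts is not given, so the leader that was counted may differ.

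Both NDUFB8 and NDUFA1 encode subunits of respiratory complex I. The NDUFB8 leader held 62.6, 52.3 and 56.1 CPM with silvestrol and 18.5, 9.51 and 10.4 CPM with CR-1-31-B, while DMSO libraries held 25.4, 4.25 and 12.6 CPM. Its log2 fold change was -2.12 (95% interval -3.25 to -0.999). The NDUFA1 leader held 69.9, 30.7 and 52.2 CPM against 9.92, 22.5 and 9.27 CPM, with 10.8, 17.0 and 5.72 CPM in DMSO (log2 -1.87, -2.99 to -0.75). In both leaders the compounds did not overlap, and CR-1-31-B overlapped DMSO.

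CTNND1 encodes p120 catenin, which stabilises cadherins at cell contacts, and its leader carries the longest purine run shown. It held 88.5, 69.4 and 102 CPM with silvestrol, 31.7, 29.4 and 25.5 CPM with CR-1-31-B and 11.7, 21.2 and 5.72 CPM with DMSO. Here CR-1-31-B lay between DMSO and silvestrol, with no overlap on either side, and the log2 fold change between the compounds was -1.58 (95% interval -2.47 to -0.68). The leader of RPS15, a protein of the small ribosomal subunit, held 220, 173 and 212 CPM with silvestrol and 80.7, 123 and 42.9 CPM with CR-1-31-B (log2 -1.29, -2.08 to -0.50). Leaving out any 1 library kept HDDC2 between -2.06 and -1.52, NDUFB8 between -2.52 and -1.95 and CTNND1 between -1.72 and -1.47. With the block, limma voom passed all 5 of these leaders and DESeq2 passed HDDC2 and RPS15, whereas edgeR called none.

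Among the others on that side, the leader of RHOT2, a GTPase of the outer mitochondrial membrane, had a log2 fold change of -1.48. That of BOP1, a factor of ribosome assembly, was at -2.16, while the BOP1 CDS was at 0.22. The 3'UTR of SIAE, a sialic acid esterase, held 121, 276 and 43.3 CPM with silvestrol, 31.1, 38.1 and 19.7 CPM with CR-1-31-B and 63.6, 271 and 104 CPM with DMSO. There the compounds did not overlap (log2 -2.29, 95% interval -3.45 to -1.14), and the CR-1-31-B libraries were below the DMSO libraries as well. With no filter edgeR called this 3'UTR and the SIAE gene sum, as it did with the block when silvestrol library 3 was left out.

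CTCFL, a germline paralog of the insulator protein CTCF, had the largest log2 fold change of this side in its leader, -4.11, and rested on 1 library. Silvestrol library 3 held 121 of the 142 counts of that group, against 10 counts in the 3 CR-1-31-B libraries together, 9 of them in library 3. Within the fits that left out 1 library its log2 fold change ranged from -6.86 to -1.45. The CTCFL leader was called by edgeR with no filter, and with the block when silvestrol library 1 was left out.

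**Figure D3:**
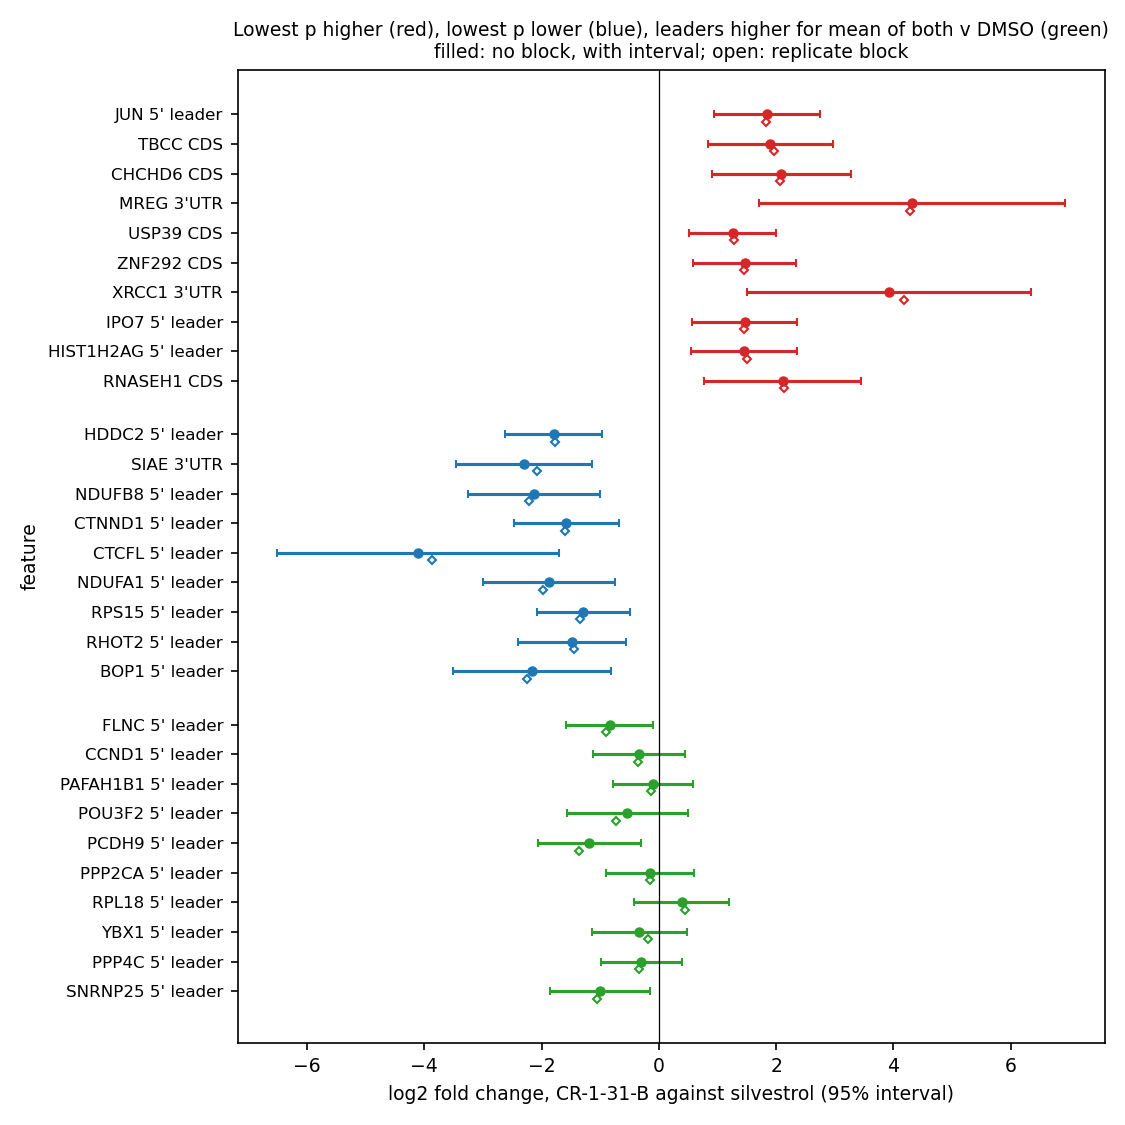
Log2 fold changes of CR-1-31-B against silvestrol for the 10 features of lowest p on the CR-1-31-B side (red), 9 of the 10 on the silvestrol side (blue) and for the 10 leaders of lowest p called higher for the mean of both compounds over DMSO (green). Filled points with 95% intervals are from the fit without the block and open diamonds from the fit with it, and 9 of the 10 green points lie below 0.

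The 10 features of lowest p on the CR-1-31-B side were the JUN leader, 2 other leaders, 5 CDS and 2 3'UTRs, and only JUN was called in the block fit. The CDS of TBCC, a folding cofactor of tubulin, held 17.5, 14.8 and 8.92 CPM with silvestrol and 37.0, 63.1 and 57.9 CPM with CR-1-31-B, a log2 fold change of 1.90 (95% interval 0.84 to 2.97). The CDS of USP39, a splicing factor, held 86.7, 59.1 and 82.8 CPM against 178, 222 and 149 CPM (log2 1.26, 0.52 to 2.00). DMSO libraries held 6.87 to 16.6 CPM of TBCC and 28.7 to 55.8 CPM of USP39. In both CDS every CR-1-31-B library was above every silvestrol and DMSO library.

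The leader of IPO7, a nuclear import receptor, held 50.6, 20.5 and 33.1 CPM with silvestrol and 134, 100 and 56.8 CPM with CR-1-31-B, a log2 fold change of 1.46 (95% interval 0.57 to 2.35). The leader of HIST1H2AG, a replication-dependent histone, was at 1.45. It held 46.4, 44.4 and 16.6 CPM with silvestrol and 93.2, 144 and 61.4 CPM with CR-1-31-B, and its DMSO libraries (84.2, 62.6 and 41.2 CPM) overlapped both. RNASEH1, which removes RNA from RNA-DNA hybrids, was likewise low with silvestrol in its CDS (4.22, 6.82 and 5.10 CPM) beside CR-1-31-B (15.9, 28.5 and 25.5 CPM) and DMSO (37.2, 29.7 and 10.3 CPM). The CDS of CHCHD6, a protein of mitochondrial cristae, was at 2.09 and that of ZNF292, a zinc finger protein, at 1.46.

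The 3'UTRs of MREG, a melanosome transport protein, and XRCC1, a scaffold of DNA strand break repair, were near 0 with silvestrol. MREG had 2, 0 and 0 counts with silvestrol and 19, 10 and 16 with CR-1-31-B. The ratio of the summed counts, scaled by library size, was 21.2 (exact 95% interval for counting error only, 5.53 to 180). XRCC1 had 5, 0 and 0 counts against 33, 15 and 25, a ratio of 13.7 (5.63 to 43.6). For MREG the DMSO libraries held 4.89, 20.2 and 8.01 CPM, so the low group was silvestrol, and for XRCC1 they held 0 to 3.18 CPM, so the high group was CR-1-31-B.

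Leaders called higher for the mean of both rocaglates against DMSO were the next members. Of 7122 leaders, 99 (1.39%) were called higher by that contrast with edgeR. All 99 were above 0 with each compound, but a mean can pass through 1 compound. Against DMSO, 33 of the 99 were called with each compound, 24 with silvestrol but not CR-1-31-B, 17 with CR-1-31-B but not silvestrol, and 25 with neither. JUN, for example, was not called for silvestrol (edgeR adjusted p = 0.497), nor CTNND1 for CR-1-31-B (0.420). Their median log2 fold change of CR-1-31-B against silvestrol was -0.10, against -0.05 over all leaders, and that of the 33 was -0.093. Of the 99, 58 were below 0 and 41 above, all 3 CR-1-31-B libraries lay below all 3 silvestrol libraries in 10 (360 of 7122 leaders, 5.05%) and above in 5 (3.19% of all leaders). The medians within numbers 1 to 3 were -0.34, 0.44 and -0.53, so number 2 differed from the others in sign. Over all 7122 leaders they were -0.06, 0.23 and -0.37, so number 2 differed in sign there too. The 95% interval lay within 2-fold of no difference for 23 of the 99.

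The 10 of lowest p among the 99 were all called with each compound against DMSO, and 9 of them were below 0 between the compounds. FLNC, which encodes an actin crosslinker of muscle, held 125, 126 and 136 CPM with silvestrol, 62.8, 103 and 49.8 CPM with CR-1-31-B and 11.7, 14.9 and 10.3 CPM with DMSO. Its log2 fold change between the compounds was -0.84 (95% interval -1.59 to -0.09). PCDH9, a neural cell adhesion protein, held 209, 182 and 321 CPM against 86.0, 179 and 46.3 CPM (log2 -1.19, -2.06 to -0.31). SNRNP25, a protein of the minor spliceosome, held 205, 140 and 212 CPM against 134, 54.5 and 88.1 CPM (log2 -1.002, -1.85 to -0.16). In these 3 leaders and in that of CCND1 the compounds did not overlap, and none was called.

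CCND1, the cyclin that drives entry into the cell cycle, had nearly equal silvestrol libraries, 80.7, 81.9 and 81.5 CPM, and 68.8, 70.9 and 52.1 CPM with CR-1-31-B. The difference was small (log2 -0.34, 95% interval -1.13 to 0.44). POU3F2, a neural transcription factor, held 75.9, 86.4 and 67.5 CPM with silvestrol and 50.9, 93.4 and 12.7 CPM with CR-1-31-B, so library 3 stood apart from the other CR-1-31-B libraries. Its DMSO libraries held 1.06 to 4.89 CPM, and its interval between the compounds was wide (log2 -0.54, -1.57 to 0.50).

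The remaining 5 of the 10 were these. The leader of PAFAH1B1, a dynein regulator, was at -0.10 (95% interval -0.78 to 0.58) and that of PPP2CA, the catalytic subunit of phosphatase PP2A, at -0.15 (-0.90 to 0.60). PPP4C, the catalytic subunit of phosphatase PP4, was at -0.30 (-0.99 to 0.40), and for these 3 leaders a 2-fold difference is outside the interval. YBX1, an RNA-binding protein, was at -0.34 (-1.15 to 0.47), and RPL18, of the large ribosomal subunit, at 0.39 (-0.42 to 1.19). The directions of PAFAH1B1, PPP2CA, YBX1 and RPL18 changed when single libraries were left out.

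Leaders were also ordered by their longest purine run. In 6925 tested leaders with a GENCODE 29 sequence, the median log2 fold change of both rocaglates against DMSO was 0.23 where the longest run of A and G measured 1 to 7 bases (2547 leaders), 0.41 at 8 to 11 (2682), 0.49 at 12 to 15 (1067) and 0.52 at 16 or more (627). The medians of CR-1-31-B against silvestrol were -0.05, -0.05, -0.03 and -0.10 in the same order. Runs of at least 12 were present in 24.5% of these leaders and in 41.2% of the 97 leaders with a sequence among those called higher for the mean of both rocaglates. They were present in 27.1% of those higher with CR-1-31-B and 20.7% of those lower, both at an unadjusted p under 0.05. Longer leaders hold longer runs (median length 152 bases in the lowest bin and 451 in the highest), and these are descriptions across leaders, which share libraries. RefSeq start sequences matched only 3826 of 7122 leaders, under 80%, so a check of the first 50 bases is void.

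**Figure D4:**
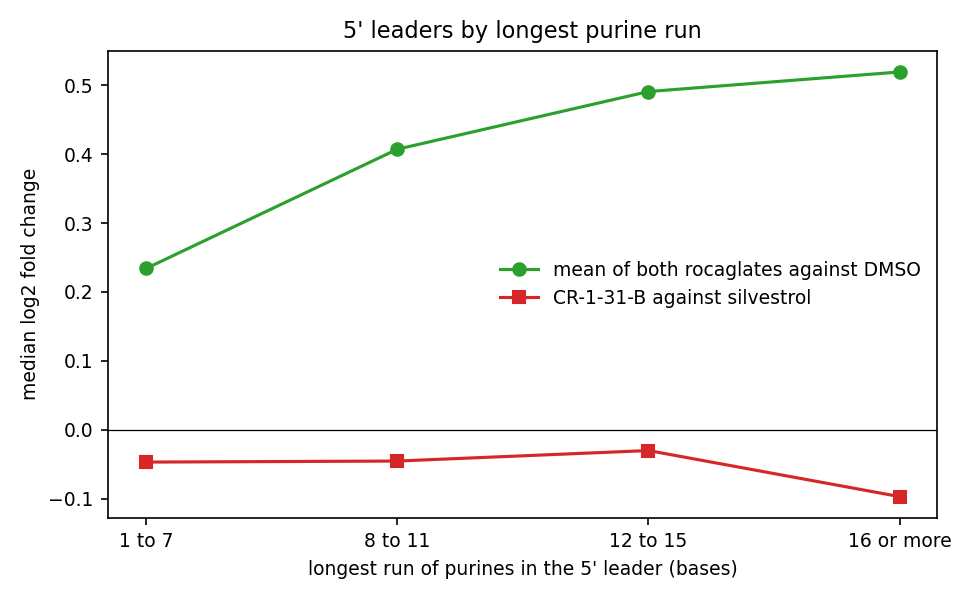
Median log2 fold change (y axis) of tested leaders in 4 bins of their longest purine run (x axis), for both rocaglates against DMSO in green and for CR-1-31-B against silvestrol in red. The green medians go from 0.23 to 0.52 and the red ones stay between -0.10 and -0.03.

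The share of each library's counts in a class describes the make-up of that library. It was not corrected for RNA level or for the input library. Leaders took 34.4%, 28.5% and 29.5% of the counts with silvestrol (30.8% ± 3.16, SD, n = 3) and 32.7%, 35.0% and 22.8% with CR-1-31-B (30.2% ± 6.49, SD, n = 3). DMSO libraries were at 23.4%, 24.1% and 20.7%, so CR-1-31-B library 3 lay within the DMSO range while the other rocaglate libraries lay above it. The difference of -0.688 percentage points had an exact 90% interval of -11.7 to 6.41 (exact two-sided permutation test, p = 0.9). The difference was -3.09 points without CR-1-31-B library 2 and 3.001 points without CR-1-31-B library 3.

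CDS took 32.4%, 27.3% and 31.5% with silvestrol and 34.7%, 32.9% and 32.0% with CR-1-31-B, 2.74 points more (exact 90% interval -0.443 to 7.33, exact permutation p = 0.2). CR-1-31-B was the higher in each number, by 2.26, 5.52 and 0.447 points. Among counts in leaders, CDS and 3'UTRs alone, the CDS share was 38.0%, 35.7% and 38.6% with silvestrol and 40.4%, 38.9% and 40.8% with CR-1-31-B. These values did not overlap, and the difference was 2.62 points (exact 90% interval 0.294 to 5.11). Its exact permutation p of 0.1 is the smallest that 3 against 3 libraries can give, and the value adjusted over the 3 classes was 0.3. No class passed adjustment over the 7 classes, each at an adjusted exact permutation p of 1.

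**Figure D5:**
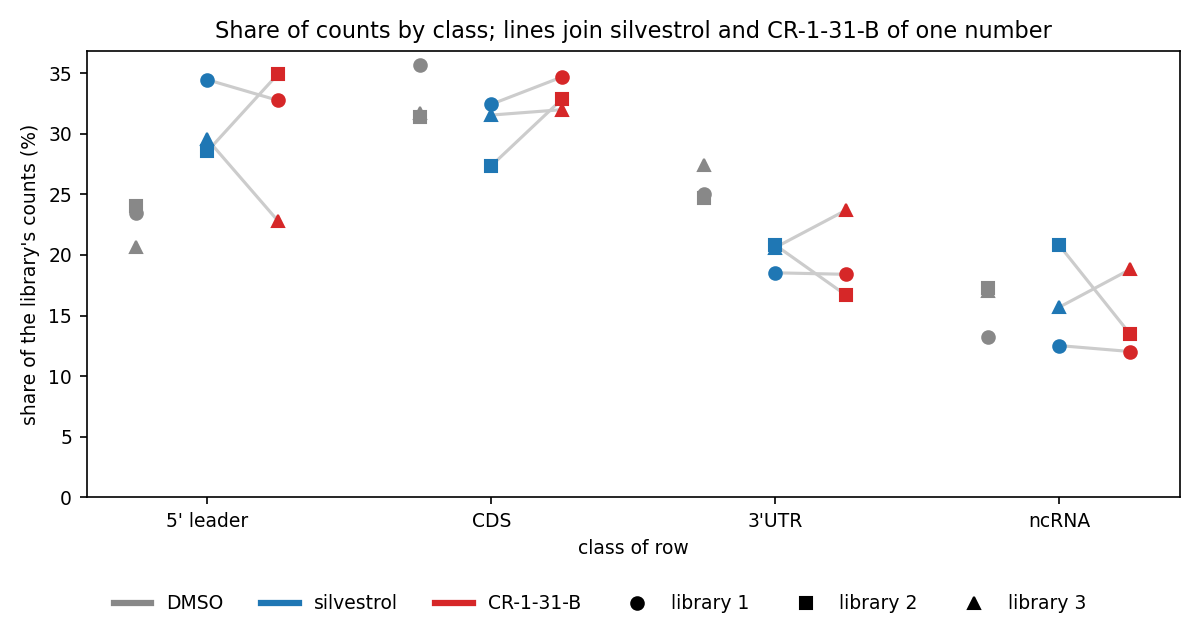
Share of a library's counts (%, y axis) in 4 classes (x axis), 1 point per library, with lines joining the silvestrol and CR-1-31-B libraries of one number. The CDS lines all go up from silvestrol to CR-1-31-B, while the leader lines go up for number 2 and down for numbers 1 and 3.

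Over all tested features, all 3 CR-1-31-B libraries lay above all silvestrol libraries in 1047 (4.24%) and below in 863 (3.49%). The median log2 fold change was 0.11 for CDS, with 58.4% of 8413 above 0, and the medians within numbers 1 to 3 were 0.08, 0.23 and 0.03. For leaders the median was -0.05 and within numbers -0.06, 0.23 and -0.37. In CDS all 3 CR-1-31-B libraries lay above all silvestrol libraries in 537 (6.38%) and below in 215 (2.56%), and in leaders above in 227 (3.19%) and below in 360 (5.05%). Features share libraries, so these counts carry no test.

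Use of the parts within a gene was compared by edgeR's test of leader, CDS and 3'UTR against each other, and 0 of 7504 genes (0%) were called, with 201 (2.68%) at an unadjusted p under 0.05. With the block 0 were called and 310 (4.13%) had such a p. ATP5G3, a subunit of the mitochondrial ATP synthase, had the lowest p with the block (edgeR adjusted p 0.161). Its leader held 341, 246 and 234 CPM with silvestrol and 208, 110 and 57.9 CPM with CR-1-31-B, while its CDS held 76.5, 29.6 and 48.4 CPM against 114, 144 and 84.6 CPM. Both parts had groups that did not overlap, in opposite directions (log2 -1.12 and 1.13). FSD1, a microtubule-associated protein, was at -1.05 in its leader and 1.73 in its CDS.

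Genes of translation and of the cytoskeleton were read from lists in the same way. Of the ribosomal protein leaders, 14 of 43 of the large subunit and 14 of 32 of the small subunit were above 0, with medians of -0.27 and -0.07 beside -0.05 for all leaders. The large subunit median was 0.08 if silvestrol library 1 was left out and 0.04 if CR-1-31-B library 3 was. The leader of RPLP0, of the ribosomal stalk, held 170, 111 and 139 CPM with silvestrol and 314, 273 and 289 CPM with CR-1-31-B (log2 1.05). That of RPL9 held 51.2, 28.4 and 37.0 CPM against 22.5, 9.51 and 6.95 CPM (log2 -1.54), so members of one subunit lay on both sides. Many ribosomal protein genes have processed pseudogenes, and the counts of near-identical copies are uncertain.

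Of 23 tested leaders of actin cytoskeleton and tubulin genes, 4 were above 0 and the median was -0.57, between -0.65 and -0.22 when 1 library was left out. VIM encodes the intermediate filament vimentin, which is neither an actin nor a tubulin. Its leader held 220, 201 and 101 CPM with silvestrol and 118, 120 and 53.3 CPM with CR-1-31-B (log2 -0.83), and the groups overlapped. PDCD4, an inhibitor that binds eIF4A, held 105, 53.5 and 73.9 CPM against 39.0, 45.8 and 23.2 CPM in its leader (log2 -1.10, 95% interval -1.98 to -0.22), without overlap. OAZ1, which inhibits polyamine synthesis, held 363, 262 and 223 CPM against 150, 140 and 56.8 CPM (log2 -1.28, -2.09 to -0.47), also without overlap. Leader medians of the oncogenic mRNAs known to depend on eIF4A (0.06), cell cycle genes (0.19), chaperones (0.08), proteasome (0.10), oxidative phosphorylation (-0.03) and glycolysis (-0.18) ranged around 0. In polyamine synthesis 3 of 10 leaders were above 0 (median -0.39), and in neural transcription factors 3 of 8 (median -0.35). No member of these lists was called by edgeR, with or without the block, while DESeq2 and limma voom with the block passed some, the RPLP0, RPS15, OAZ1 and ATP5G3 leaders by both.

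Within glycolysis, 2 phosphofructokinases lay apart. The PFKP leader held 6.63, 9.10 and 5.10 CPM with silvestrol and 21.8, 23.4 and 22.0 CPM with CR-1-31-B (log2 1.67, 95% interval 0.47 to 2.87). The PFKL leader held 24.7, 31.8 and 28.0 CPM against 11.2, 6.05 and 6.95 CPM (log2 -1.76, -2.96 to -0.56). Neither pair of groups overlapped and neither was called.

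A missing call does not show that the compounds act alike, so the intervals are given. For 2323 features (9.40%) the 95% interval lay within 2-fold of no difference, and for 17228 (69.7%) within 4-fold. The share within 2-fold depended on level, at 0.287% for features of 10 to 30 CPM, 22.0% at 30 to 100 CPM and 52.8% at 100 to 300 CPM. With the block, 4016 features (16.3%) lay within 2-fold. The 10 features of highest CPM, led by the ncRNA RMRP, had log2 fold changes from -0.67 to 0.17. RMRP held 29575, 34853 and 54549 CPM with silvestrol and 25865, 16136 and 53362 CPM with CR-1-31-B.

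Libraries resembled each other by number about as much as by compound. Across tested features, Pearson's r of log2 CPM was 0.628 to 0.761 within CR-1-31-B, 0.656 to 0.783 within silvestrol, and 0.641 to 0.886 between the compounds at the same number. At other numbers it was 0.627 to 0.778 between the compounds. These correlations are across features, which are not independent.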

How the data were processed

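Each library has 1 deposited file, in which the authors gave read counts for each symbol in 7 classes, per the file headers. The submitters' processing notes name cutadapt and Bowtie 1.1. The genome build, the annotation, duplicate removal, strand and the counting rule are not given in the sources used here, so near-identical copies, overlapping and antisense genes are uncertain. The anti-FLAG libraries held 858733 to 1804732 counts. Whether molecular identifiers were used is not given either, and intervals from counts cover counting error only. Libraries of 1 group differed beyond counting noise in every pair, at 3.97 to 9.07 chi-square units per degree of freedom.

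The 9 anti-FLAG libraries were fitted together with edgeR 4.0.16 (R 4.3.3) using filterByExpr by group, TMM scaling, quasi-likelihood tests and Benjamini-Hochberg adjustment over all features. A feature with an adjusted p under 0.05 is called. Genes are the sums of leader, CDS and 3'UTR, and class use was tested with diffSpliceDGE. Intervals use the fit's SE and degrees of freedom. Class shares were compared by exact permutation over 20 splits, and their 90% intervals invert that test. The steps were tested on simulated data without a shared effect of the library number, so the block was not checked where such an effect is present.

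The labels number the libraries of each group 1 to 3. Taking log2 CPM with a prior count of 2, deviations from group means correlated at 0.102 to 0.263 for the 9 same-number pairs and at -0.203 to 0.0163 for others, and 9 of 9 libraries matched best with their own number. All pairs passed the limit of 0.1, but the lowest, silvestrol library 2 with CR-1-31-B library 2 at 0.102, did so barely. Pearson's r of log2 CPM for that pair was 0.641. It was higher for CR-1-31-B library 2 with silvestrol library 1 (0.754) and with silvestrol library 3 (0.681). The pairing comes from the data, not from the labels, and the blocked fit is printed where it changes a call.

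Alternatives were DESeq2 1.42.0, limma 3.58.1 voom, other scalings and filters, the 6 rocaglate libraries alone and each library left out, 32 settings per feature and per gene counting the fit as first planned. Those that combine the block with another change, and the GENCODE leaders in place of the first 50 bases, were chosen after seeing the data. Named features are the 10 of lowest p in each direction, the 10 leaders of lowest p for the mean of both rocaglates against DMSO, the 10 of highest CPM, the lowest p in each direction of each of 18 gene lists, and the 5 lowest per gene and for class use. Not all of them are printed, and 1 of lowest p is not reported here. IER2 and ATF3 as genes, and MYC, EGR1, IER5, DUSP1, KLF6, OAZ1 and ATP5G3 where the rule does not reach them, were named after their values were seen. The members and lists were chosen with earlier results of these data known.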

Additional observations from a re-analysis of the deposited data

Results flagged for a closer look

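The JUN leader and the JUN gene sum were higher with CR-1-31-B than with silvestrol by edgeR's test of that difference with the replicate block. The log2 fold change with the block was 1.82 for the leader and 1.57 for the gene sum. Each CR-1-31-B library was above the silvestrol library of its number in both. Without the block and with the usual filter neither was called by edgeR. With no filter edgeR called both, with an adjusted p of 0.00764 for the leader and 0.000501 for the gene sum. That setting also called the CTCFL leader, which rested on 1 library. Both groups were highest in library 2, as was DMSO, and the part of that in the result was not tested.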

How the results depend on the processing

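Without the block, edgeR called 0 features and 0 genes whichever of the 9 libraries was left out, and under each other scaling, the stricter filter and the 6 rocaglate libraries alone. With no filter it called 7 features and 5 genes, JUN among both. The other features were the CTCFL and PLCG2 leaders, the SIAE 3'UTR and the ncRNA rows LOC107984750, CPEB1-AS1 and LOC107986174. The other genes were CTCFL, IER2, PLCG2 and SIAE. DESeq2 called 1 gene. With the replicate block, edgeR called 1 feature and 1 gene under TMM, DESeq2 size factors and total counts, and with 6 libraries alone 0 features and 1 gene. DESeq2 with the block called 11 features and 13 genes, and limma voom 39 and 19. Leaving out 1 library under the block gave 1 to 3 features and 1 to 6 genes, the highest without silvestrol library 1. All 15 alternatives for class use gave 0. The cause of these differences was not tested.

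Features within 2-fold numbered 4016 with the block, 4999 with no filter, 3993 with the block and DESeq2 size factors, and 3978 with the block and total counts. With 1 library left out they numbered 680 to 2406, and under the block 4223 without DMSO library 2, 1443 without silvestrol library 1, then 1415 with CR-1-31-B library 1 left out. The immediate early CDS median was 0.89 with the block, 0.90 with the block and 6 libraries, and 0.94 with the block and total counts. Leaving out 1 library moved it between 0.29 and 1.35, and with the block to 0.96 without DMSO library 2, 1.06 without silvestrol library 1 and 1.03 when CR-1-31-B library 1 was left out. The leader median moved between -0.21 and 1.14 and the 3'UTR median between 0.074 and 0.86 (0.22 to 0.64 with the block). The actin and tubulin leader median moved between -0.65 and -0.22, and the large subunit leader median between -0.47 and 0.077. The transcript class median moved between -0.31 and 0.11. Directions were followed across the alternatives for 67 features, not for every feature described above. The leaders of KLF4, FOS, FOSB and JUNB and the 3'UTRs of EGR3 and KLF6 were among those not followed. Of the 67, 60 kept their direction under every alternative, and 7 changed it when 1 library was left out. Without the block these ran from -0.26 to 0.063 for the MYC leader, -0.40 to 0.092 for PAFAH1B1, -0.38 to 0.18 for PPP2CA, -0.74 to 0.034 for YBX1, -0.18 to 0.47 for the BOP1 CDS and -1.35 to 2.65 for the EGR1 CDS. With the block, PAFAH1B1 was at 0.023, PPP2CA at 0.082 and YBX1 at 0.064 without silvestrol library 1, and at 0.085, 0.13 and 0.0084 without CR-1-31-B library 3. YBX1 was at 0.033 without silvestrol library 3, the BOP1 CDS at -0.12 without silvestrol library 2, and RPL18 at -0.093 without CR-1-31-B library 2. At most 3 libraries per group and counts under 30 CPM limit what could be detected.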
